A study of Mus musculus with 2 samples.

Results

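The genes described here form the protein-folding and quality-control machinery of the endoplasmic reticulum (ER), the compartment in which secreted and membrane proteins are made. The list names 35 genes by symbol, and all 35 have a row among the 44792 rows of the deposited table of read counts. It holds ER chaperones and their partners, disulphide isomerases and ERO1 oxidases, genes of ER-associated degradation, the stress sensors of the unfolded protein response (UPR), parts of the translocon and chaperones of collagen. The rule picks rows by gene symbol, and the list was drawn up with earlier results of these data known. Ero1l and Ero1lb are older symbols of the genes that RefSeq calls Ero1a and Ero1b.

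The cells were OCCM-30, an immortalized line of mouse cells with cementoblast properties. Cementoblasts make cementum, the mineralized layer that covers tooth roots. The labels give both groups as wild type, and their titles and treatment entries name 1 library from cells under compressive force and 1 library from control cells. The free-text treatment note has the same wording for both samples and mentions force for the control as well, so every ratio below rests on the titles and treatment entries. OCCM-30 is a single line, and no label names separate cultures, so a ratio between these libraries has no replicate check. How strong and how long the force was were not given in the sources used here. Depth was alike: the compressed library held 24296292 counts and the control library 25049919 counts. The line expressed Col1a1, Col1a2, Sparc and Runx2, while Bglap had 12 counts under force and 11 in the control library and Ibsp was listed at 0 in both. Among markers of other cell types, 3 of 6 macrophage and osteoclast genes, 0 of 4 epithelial genes, 1 of 3 endothelial genes and 1 of 4 plasma cell and B cell genes reached 1 CPM (counts per 1000000 counts) in either library. Summed over each list, the levels under force and in the control library were 9.88 and 9.94 CPM for the macrophage and osteoclast genes, 0.824 and 0.918 CPM for the epithelial genes, 0.865 and 1.36 CPM for the endothelial genes and 126 and 127 CPM for the plasma cell and B cell genes. The plasma cell and B cell gene that passed was Sdc1, which many adherent cells express, and Cd79a, Igj and Pou2af1 were at 0 in the compressed library with 2, 1 and 3 counts in the control library.

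Proteins enter the ER through the Sec61 channel and fold there with the help of the HSP70-type chaperone BiP (Hspa5), the HSP90-type chaperone GRP94 (Hsp90b1) and the lectins calnexin and calreticulin. Disulphide bonds form when protein disulphide isomerases pass electrons to ERO1, which hands them to molecular oxygen. Chains that fail to fold are moved back to the cytosol and destroyed, a route called ER-associated degradation. When unfolded chains build up, the sensors ATF6, IRE1 (Ern1) and PERK (Eif2ak3) start the UPR, which raises the transcription of many of these genes. Cells of mineralized tissue carry a heavy folding load because they secrete large amounts of collagen.

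The promoters of these genes are known for a sequence element of the UPR, and it is shown first because it marks the pathway in the DNA itself. RefSeq promoter windows on GRCm38.p6, from 250 bases before to 50 bases after each start site, matched 29 of the 35 genes. For some genes, such as Ero1lb and Edem1, that start site lies inside the gene span. The ER stress response element (ERSE) was searched on both strands as CCAAT, any 9 bases and CCACG, with no mismatch. It was present in 10 of the 29 windows (34.5%), against 37 of 27025 genes with a window in the whole table (0.137%). The sites are listed 5′ to 3′ along the strand that carries the motif, with 3 flanking bases on each side, and capitals mark the fixed letters of the motif.
Hspa5 (chr2:34772022-34772046, plus strand): tcaCCAATcggaggcctCCACGacg
Hsp90b1 (chr10:86705530-86705554, plus strand): tcaCCAATcgtgcctcaCCACGcac
Hsp90b1 (chr10:86705635-86705659, minus strand): agcCCAATcgcaaggagCCACGctt
Calr (chr8:84847072-84847096, plus strand): gggCCAATgagggtcgaCCACGcgt
Canx (chr11:50325797-50325821, minus strand): tgaCCAATcaccacgctCCACGaag
Pdia6 (chr12:17266488-17266512, plus strand): agaCCAATgaaaggcggCCACGgcg
Creld2 (chr15:88819517-88819541, minus strand): ggaCCAATtgaggctcgCCACGaga
Dnajc3 (chr14:118937824-118937848, plus strand): caaCCAATcagcgccaaCCACGacc
Ero1lb (chr13:12565679-12565703, minus strand): cggCCAATgaggcgggaCCACGagg
Syvn1 (chr19:6046529-6046553, plus strand): caaCCAATcggcggtagCCACGgga
Derl3 (chr10:75893239-75893263, minus strand): tagCCAATggggaagtcCCACGgta

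The first base of a site, read along the gene, lay between -212 and -44 relative to the start site. Hsp90b1, with 2 exact matches, was the gene with more than 1, and copies with a mismatch were not searched. A shorter relative, ERSE-II, was searched on both strands as ATTGG, any 1 base and CCACG, and was found in Herpud1 and Dnajb11, which is 2 of 29 genes (6.90%) against 0.0444% of all genes with a window. These are shown because they add 2 genes that lack the longer element. The Herpud1 site lay at -52 to -42 from the start site, and the Dnajb11 site lay after it, at 7 to 17.
Herpud1 (chr8:94386374-94386390, plus strand): ctgATTGGgCCACGttg
Dnajb11 (chr16:22857849-22857865, plus strand): gcgATTGGcCCACGcct
The UPR element TGACGTGG, bound by XBP1 and ATF6, was in 0 of the 29 genes and in 0.714% of all genes with a window. The ATF4 and C/EBP composite TGATGNAA was in 1 of 29 genes, Herpud1, and in 4.51% of all genes with a window. A match is a match of letters in this window and not a measured binding site.

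**Figure D1:**
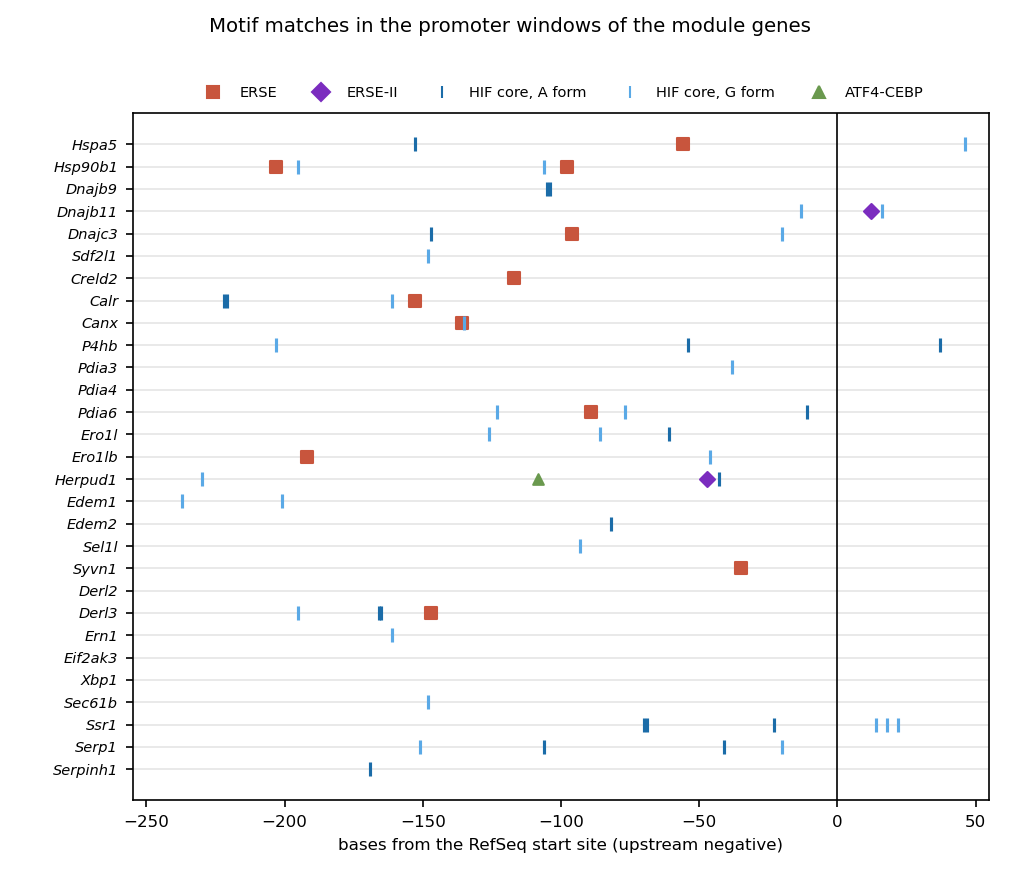
Positions of motif matches in the promoter windows of the 29 genes with a RefSeq entry, in bases from the start site (upstream negative), with 1 line per gene and 1 symbol per match. ERSE matches (squares) lie in 10 genes and ERSE-II matches (diamonds) in 2. The row of Ero1l holds 3 matches of the core of the hypoxia response element and no ERSE. The rows of Ssr1 and Serp1 hold more core matches than that of Ero1l, also without an ERSE. Some of the Ssr1 matches overlap each other or lie after the start site.

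Values are given below as counts in each library, as CPM on TMM-scaled library sizes and as the ratio of the compressed over the control library. Each ratio has an exact 95% interval from the counts, which covers counting error only. A gene was tested at 1 CPM or more in either library, and it was called when the ratio reached 2 or fell to 0.5 and its interval excluded 1. Of the 35 genes 33 were tested, since Manf and Derl3 were listed at 0 in both libraries. Of these 1 was called higher, namely Ero1l, and 0 were called lower. Among all 14001 genes tested, 3.06% were called higher and 0.929% lower, so 1 of 33 is close to the background share. At a lower limit of 1.5-fold, Ero1l was again the gene called higher and 0 were called lower, against 7.31% and 3.71% of all genes tested. The other 32 genes had ratios from 0.827 to 1.23, a span that held 63.4% of all genes tested and 70.1% of the 11008 genes with at least 5 CPM. The median log2 ratio over the 33 genes was 0.02, beside -0.01 over all genes tested. In bulk RNA, fewer cells that express a gene and less of its RNA per cell cannot be told apart.

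**Figure D2:**
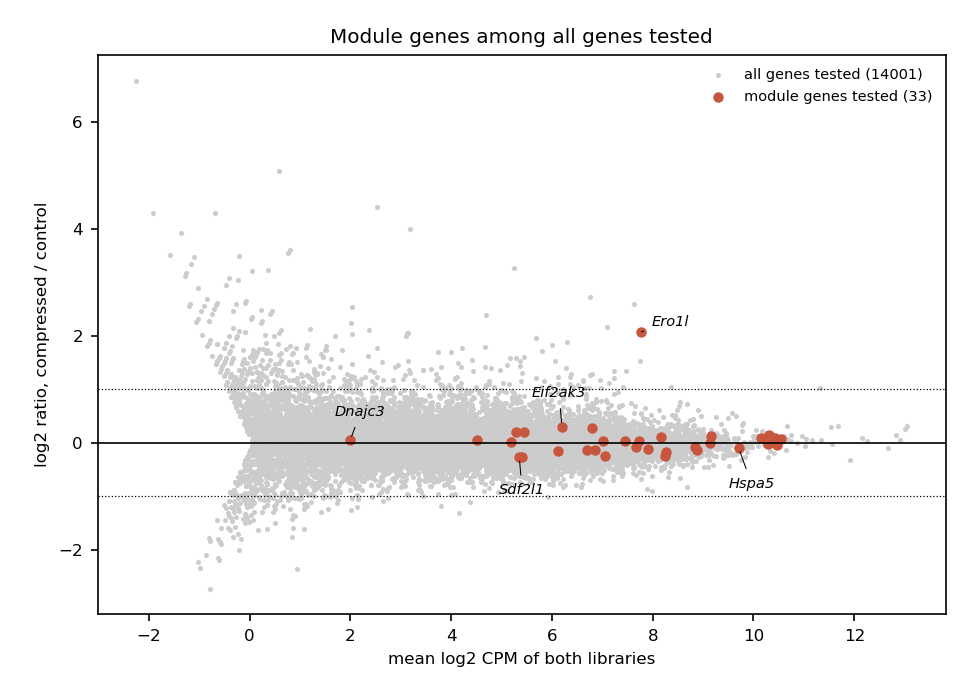
Log2 ratio of the compressed over the control library against mean log2 CPM for all 14001 genes tested (grey) and the 33 folding and UPR genes tested (red), with dotted lines at 2-fold. Ero1l stands at a log2 ratio of 2.07, and the other red points lie between the dotted lines, near 0.

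As a sum, the 35 genes took 1.41% of all counts in the compressed library and 1.36% in the control library. Without Ero1l the shares were 1.36% and 1.35%. The summed level of the module was thus nearly level between the libraries, and most of the small gap came from 1 gene.

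Ero1l encodes ERO1-alpha, the oxidase that recharges protein disulphide isomerase, and it lies on chromosome 14 at 45283087 to 45318572 (GRCm38.p6). It had 10928 counts in the compressed library and 2682 in the control library, or 450.0 against 107.02 CPM. The compressed library was higher by a ratio of 4.20 (4.03 to 4.39), the 58th highest of 14001 ratios, and 0.407% of the genes tested had a higher one. Its paralogue Ero1lb encodes ERO1-beta, the form typical of secretory tissue such as pancreas. Ero1lb had 562 counts under force and 563 in the control library, a ratio of 1.03 (0.915 to 1.16). For every 100 counts of Ero1lb there were 1944 of Ero1l under force and 476 in the control library. The proportion of the paralogues therefore differed by a factor of 4.08 between these libraries.

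The promoters of this pair are printed in full upstream of the start site because the paralogues differed in both sequence matches and counts. Capitals mark any ERSE span and the core of the hypoxia response element, searched as ACGTG and GCGTG on both strands. The core is the part of that element bound by hypoxia-inducible factors (HIF), and its reverse form can overlap the CCACG end of an ERSE.
Ero1l (chr14:45318573-45318822, minus strand): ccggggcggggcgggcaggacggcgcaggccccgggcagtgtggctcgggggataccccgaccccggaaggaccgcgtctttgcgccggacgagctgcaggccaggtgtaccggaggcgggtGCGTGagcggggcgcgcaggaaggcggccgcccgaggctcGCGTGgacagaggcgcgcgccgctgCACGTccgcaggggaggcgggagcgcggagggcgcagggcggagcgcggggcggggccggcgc
Ero1lb (chr13:12565633-12565882, plus strand): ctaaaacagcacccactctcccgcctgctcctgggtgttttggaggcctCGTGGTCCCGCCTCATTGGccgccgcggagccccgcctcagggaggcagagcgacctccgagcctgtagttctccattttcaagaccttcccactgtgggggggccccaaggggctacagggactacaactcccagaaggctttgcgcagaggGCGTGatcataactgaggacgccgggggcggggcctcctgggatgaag
Ero1l held 3 HIF core matches, whose first bases lay at -128, -88 and -63 from the start site, and no ERSE. Ero1lb held 1 HIF core match at -48 and 1 ERSE. The start site used for Ero1lb lies inside its gene span, which begins at 12565818, and this core match also lies within the span. HIF core letters are short and common. At least 1 of the core forms was held by 46.7% of all genes with a window and by 23 of the 29 genes here (79.3%). Serp1 held more core matches than Ero1l, all upstream, and no ERSE, at a ratio of 0.886. Ssr1 also had more matches and no ERSE, at a ratio of 0.844, but not all were separate upstream sites. Its matches at -72 and -71 overlap on opposite strands, and those at 12, 16 and 20 lie after the start site. P4hb held as many as Ero1l and no ERSE, at a ratio of 1.07, but its match at 35 lies after the start site. A link between core matches and ratios was not tested. Base composition also differed: the 250 bases upstream of Ero1l were 80.8% G and C, those of Ero1lb 64.4%, and the median over 32851 windows was 52.4%. The part of base composition in these matches was not tested.

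Protein disulphide isomerases, the enzymes that ERO1 recharges, had ratios near 1. P4hb encodes the founding isomerase PDI, which is also the beta subunit of collagen prolyl 4-hydroxylase. P4hb had 34564 counts under force and 33381 in the control library, a ratio of 1.07 (1.05 to 1.08). Pdia3, which works with calnexin and calreticulin on glycoproteins, had 28514 against 27660 counts and a ratio of 1.06 (1.05 to 1.08). For Pdia4 the counts were 7226 and 6898, with a ratio of 1.08 (1.05 to 1.12). Pdia6, a BiP-associated isomerase, had 13653 against 14050 counts, and the interval of its ratio ran from 0.979 to 1.03. These 4 isomerases had nearly equal levels in both libraries, while the oxidase differed by more than 4-fold. Counts of Ero1l per 100 counts of P4hb were 31.6 under force and 8.03 in the control library, and per 100 counts of Pdia6 they were 80.04 and 19.1.

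**Figure D3:**
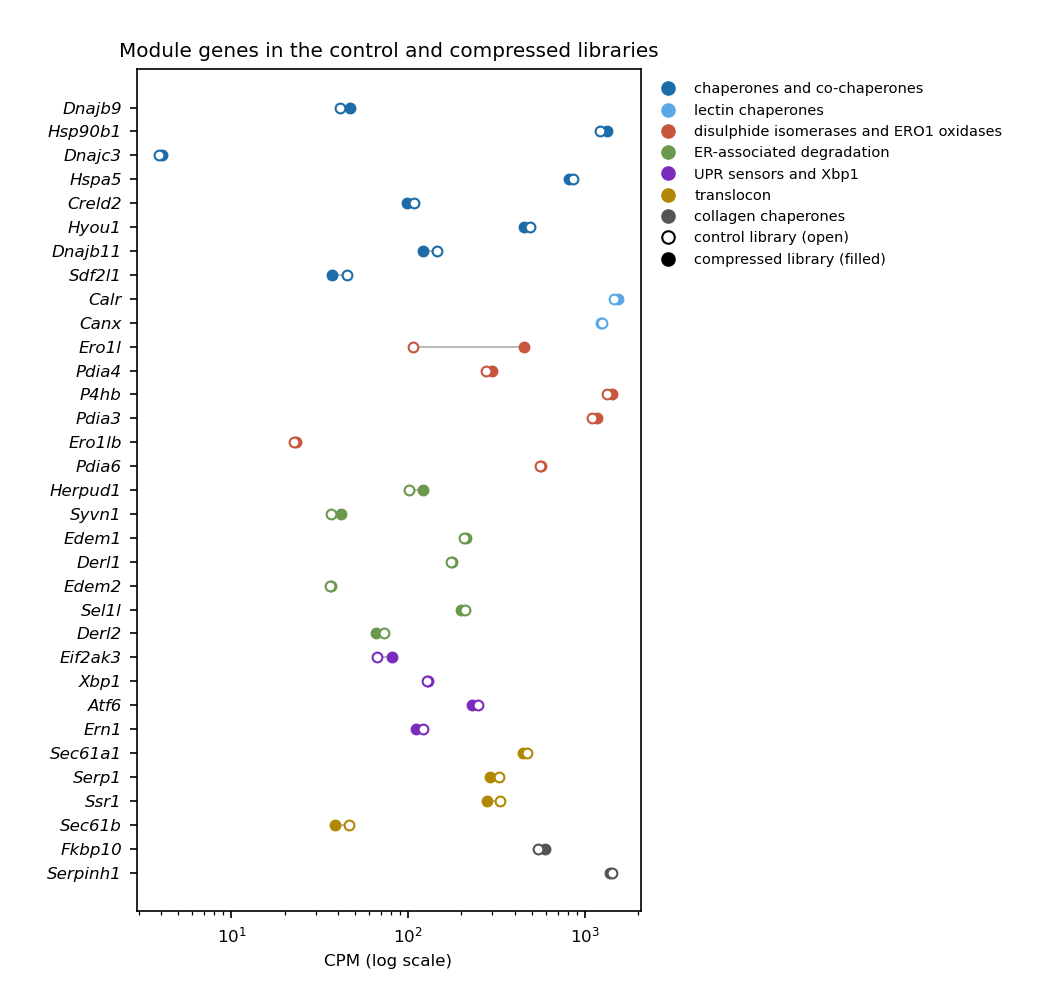
CPM of the 33 tested genes in the control (open) and compressed (filled) libraries on a log scale, coloured by role, with 1 library per symbol. The points of each gene lie close together except for Ero1l, which stands at 107.02 CPM in the control and 450.0 CPM in the compressed library.

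The chaperones and co-chaperones had ratios on both sides of 1. BiP, the central ER chaperone and the inhibitor of all 3 sensors, is the usual readout of the UPR. Its gene Hspa5, on chromosome 2 at 34772090 to 34776529, had 19619 counts in the compressed library and 21569 in the control library. The compressed library was slightly lower, at a ratio of 0.939 (0.921 to 0.957). GRP94, encoded by Hsp90b1, folds integrins, Toll-like receptors and insulin-like growth factors. Hsp90b1 had 32586 against 30392 counts and a ratio of 1.11 (1.09 to 1.12), the opposite side of 1 from Hspa5. Counts of Hsp90b1 per 100 counts of Hspa5 were 166 under force and 141 in the control library.

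Co-factors of BiP were also divided. Hyou1, a large HSP70-like nucleotide exchange factor, had 10941 against 12332 counts and a ratio of 0.916 (0.892 to 0.939). Dnajb11 (ERdj3), a J-domain protein that delivers unfolded chains to BiP, had 2958 against 3626 counts and a ratio of 0.842 (0.802 to 0.884). Its partner Sdf2l1 had 904 against 1122 counts and a ratio of 0.831 (0.761 to 0.908). Both members of this complex were thus lower in the compressed library by similar ratios, and 18.2% of all genes tested lay below Sdf2l1. Dnajb9 (ERdj4), a J-domain protein strongly induced by IRE1 and XBP1 signalling, lay on the other side, with 1141 against 1025 counts and a ratio of 1.15 (1.05 to 1.25). Creld2, a secreted ER stress protein, had 2399 against 2704 counts and a ratio of 0.916 (0.866 to 0.968). Dnajc3 (p58IPK), a J-domain protein that restrains PERK, had 98 counts in each library, and at this depth its interval of 0.772 to 1.38 leaves small differences undetectable. In all, 2 of the 8 tested members of this group had intervals above 1 and 5 below 1, beside 26.3% and 28.6% of all genes tested. High counts narrow such intervals, so small ratios of abundant genes can exclude 1.

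Manf, a secreted protein of the ER stress response, was listed at 0 in both libraries, as was Derl3. A 0 in this table does not show that a gene was silent, because genes used by every cell were also listed at 0 in both libraries, among them Rps2, Eif4e and Ndufs7. Psma6, a proteasome subunit, had 6 and 4 counts. These 4 genes were chosen after their values were seen. Low counts such as those of Dnajc3 carry the same limit.

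The lectin chaperones hold glycoproteins while they fold. Calreticulin (Calr) had 37194 counts under force and 36629 in the control library, a ratio of 1.05 (1.03 to 1.06). Calnexin (Canx), its membrane-bound relative, had 30128 against 31520 counts, a ratio of 0.986 (0.971 to 1.002). Both lectins were thus at nearly the same level with and without force.

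The collagen chaperones serve the main product of these cells. Serpinh1 (HSP47), which binds the procollagen triple helix, had 33609 counts under force and 35791 in the control library, a ratio of 0.969 (0.955 to 0.984). Fkbp10 (FKBP65), a prolyl isomerase of procollagen that is mutated in brittle bone disease, had 14510 against 13649 counts and a ratio of 1.10 (1.07 to 1.12). Col1a1 and Col1a2, the chains they serve, had ratios of 1.03 each.

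The UPR sensors had small ratios in opposite directions. PERK, encoded by Eif2ak3 on chromosome 6 at 70844484 to 70905241, phosphorylates eIF2-alpha and so slows translation. Eif2ak3 had 1980 counts under force and 1661 in the control library, and its ratio of 1.23 (1.15 to 1.31) was the highest of the module after Ero1l. Of all genes tested 19.1% had a higher ratio, so this value lies well inside the general spread. Atf6, the sensor that is cut in the Golgi to release a transcription factor, had 5598 against 6236 counts and a ratio of 0.926 (0.893 to 0.961). Ern1 (IRE1-alpha), the kinase and nuclease that splices Xbp1 mRNA, had 2693 against 3044 counts and a ratio of 0.913 (0.866 to 0.962). Xbp1, its substrate, had 3151 against 3193 counts, and its interval of 0.969 to 1.07 included 1. Gene counts do not separate spliced from unspliced Xbp1, and sensor activity was not measured.

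ER-associated degradation genes were centred on 1. Herpud1 (HERP), a scaffold of the degradation complex that the UPR induces strongly, led this group with 2956 counts under force and 2532 in the control library. Its ratio was 1.20 (1.14 to 1.27), and 20.9% of all genes tested had a higher one. Syvn1 (HRD1), the ubiquitin ligase of the complex, had 1017 against 917 counts and a ratio of 1.14 (1.05 to 1.25). Its adaptor Sel1l lay on the other side, with 4848 against 5268 counts and a ratio of 0.950 (0.913 to 0.988). Derl2, a derlin that helps move chains across the membrane, had 1595 against 1825 counts and a ratio of 0.902 (0.843 to 0.965). Edem1 and Edem2, which select glycoproteins for degradation, and Derl1 had ratios of 1.03, 1.01 and 1.02 with intervals that included 1. Over the 7 tested members the median log2 ratio was 0.03.

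All 4 translocon genes of the module had ratios below 1 with intervals below 1, although none was called. Sec61a1 forms the channel through which new chains enter the ER, and it had 10834 counts under force and 11791 in the control library, a ratio of 0.948 (0.924 to 0.973). Sec61b, a small subunit of the channel, had 933 against 1164 counts and the lowest ratio of the module, 0.827 (0.758 to 0.902). Ssr1 (TRAP-alpha), a subunit of the translocon-associated complex, had 6766 against 8272 counts and a ratio of 0.844 (0.817 to 0.872). Serp1 (RAMP4), which stabilizes membrane proteins at the channel, had 7077 against 8238 counts and a ratio of 0.886 (0.859 to 0.915). The group median log2 ratio of -0.21 was the lowest of the 7 roles, and it lay between -0.22 and -0.20 under the other scalings. Among all genes tested 28.6% had intervals below 1, and 17.6% had a ratio below that of Sec61b.

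**Figure D4:**
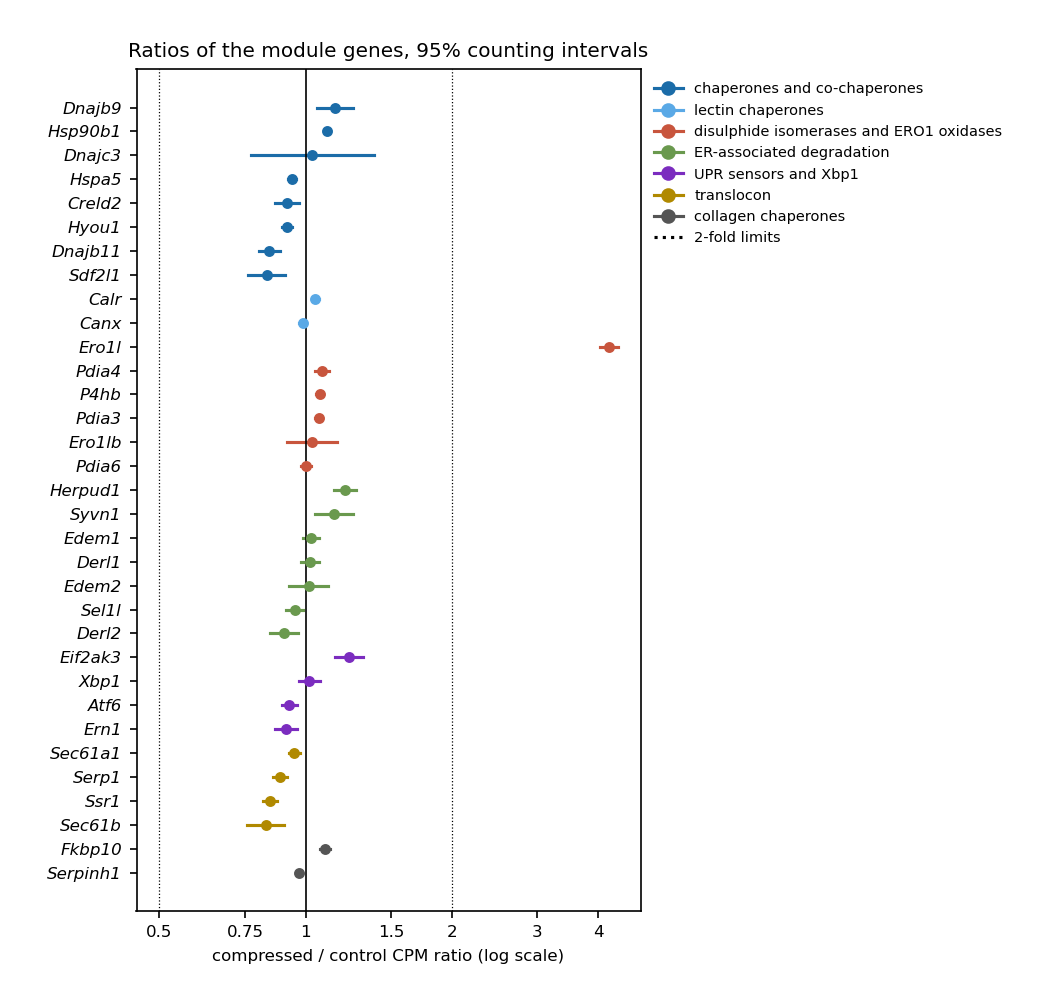
Ratio of the compressed over the control library with its 95% counting interval for the 33 tested genes, grouped by role, on a log scale with dotted lines at 2-fold. Ero1l at 4.20 is the point beyond the dotted lines, and the 4 translocon genes lie below 1, from 0.827 to 0.948.

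Counted over the module, 11 genes had intervals above 1, 14 below 1 and 8 on both sides of it. The shares among all genes tested were 26.3% above and 28.6% below. Most of these genes are abundant, which narrows the counting interval, and an interval that excludes 1 says nothing about the spread between cultures. Some counts are uncertain because another gene lies over the member. Derl2 overlaps Mis12, which had 1618 counts under force and 2178 in the control library, and Syvn1 overlaps Mrpl49, with 1121 against 1293. Serp1 overlaps Eif2a, with 2173 against 2243 counts, and Fkbp10 overlaps Nt5c3b, with 1212 against 1359. Whether strand was used in counting was not given in the sources used here, and reads of such pairs could not be separated. Hspa5 overlaps Rabepk, which had 606 counts under force and 582 in the control library, few beside those of Hspa5. Ero1l overlaps no gene with counts.

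The sequence match and the ratios were set side by side for the 29 genes with a promoter entry. The 9 tested genes with an ERSE had a median log2 ratio of 0.04 and ratios from 0.916 to 1.14, with 0 called. The 19 without an exact ERSE match had a median of 0.02, and Ero1l was the 1 called. These 19 include Herpud1 and Dnajb11, which hold ERSE-II, and an element with a mismatch would also fall among them. Outside the module the ERSE letters were in 27 genes, of which 22 matched a row and 9 were tested. Their median log2 ratio was 0.05, with 0 called at 2-fold. Among all genes tested 3.06% were called higher and 0.929% lower. The medians of all 3 sets lay between 0.02 and 0.05, beside -0.01 for all genes tested.

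Other genes of the pathway were taken from 8 lists with 163 symbols, of which 161 had a row and 153 were tested. Of these 3 were called higher and 0 lower, beside 3.06% and 0.929% of all genes tested, and their median log2 ratio was 0.01. The 3 were Plod2, Calcoco1 and Bbc3. At the 1.5-fold limit 10 were called higher and 1 lower, beside 7.31% and 3.71% of all genes tested. The 1 called lower was Calr3, with 43 against 78 counts.

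Other thiol-disulphide enzymes of the ER had 0 of 19 genes called at 2-fold, beside 3.06% called higher and 0.929% lower among all genes tested. Tmx4, a membrane-bound thioredoxin-like protein, was the highest with 2955 counts under force and 2063 in the control library, a ratio of 1.48 (1.40 to 1.56), followed by Txndc16 at 1.28. Vkorc1l1, a relative of the vitamin K reductase that can pass electrons from isomerases, was the lowest at 0.748 (0.706 to 0.793), and Txndc11 stood at 0.843. Every enzyme of this list that was tested thus lay below the 1.5-fold limit, which 7.31% of all genes tested passed as called higher. Ero1l stood at 4.20.

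Other chaperones and prolyl isomerases had 0 of 20 genes called at 2-fold, beside 3.06% called higher and 0.929% lower among all genes tested. Their median log2 ratio of -0.01 turned to 0.004 with upper-quartile factors. Sil1, a nucleotide exchange factor of BiP, was the highest, with 398 counts under force and 267 in the control library and a ratio of 1.54 (1.31 to 1.80), and Fkbp7 followed at 1.19 (0.968 to 1.46). Calr3, at 0.572 (0.383 to 0.836), and Creld1, at 0.735 (0.580 to 0.926), were the lowest. Sil1 and Hyou1 do the same job for BiP and lay on opposite sides of 1.

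Genes of N-glycosylation, degradation and translocation also had 0 called at 2-fold, out of 22, 24 and 23 tested, with median log2 ratios of -0.05 for each list. In glycosylation the ratios ran from 0.799 for Alg1 and 0.833 for Alg3 to 1.23 for Dad1 and 1.33 for Ost4, the last 2 being small subunits of the oligosaccharyl transferase. In degradation they ran from 0.690 for the ubiquitin-conjugating enzyme Ube2g2 to 1.21 for Os9 and 1.38 for Erlec1, which are lectins that bring glycoproteins to the Syvn1 complex. In translocation they ran from 0.822 for Spcs3 and 0.828 for Sec11a, subunits of the signal peptidase, to 1.12 for Tram2 and 1.17 for Sec61g. This last list had 7 genes with intervals above 1 and 7 below 1, unlike the 4 translocon genes of the module. Its other Sec61, Ssr and Serp genes were looked at after their values were seen. Ssr3 and Sec61a2 had ratios of 1.10 each, Ssr4 1.06, Ssr2 1.00 and Serp2 0.833. The difference between the lists was not tested.

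Other UPR signalling genes had 1 of 26 called higher and 0 lower at 2-fold, beside 3.06% and 0.929% of all genes tested. Their median log2 ratio was 0.09. The gene called was Bbc3 (PUMA), a killer protein of the BCL2 family. It had 182 counts under force and 80 in the control library and a ratio of 2.34 (1.80 to 3.09). Genes downstream of PERK and ATF4 were looked at after their values were seen. Atf4 itself had 11955 against 12154 counts, a ratio near 1. Ppp1r15a (GADD34), which ends the PERK signal, had 1233 against 763 counts and a ratio of 1.67 (1.52 to 1.83), and Ddit3 (CHOP) had 817 against 572 and a ratio of 1.47 (1.32 to 1.64). Atf3, a stress-induced factor, had 80 against 48 counts and a ratio of 1.71 (1.19 to 2.51), and Chac1, Nupr1 and Trib3 had ratios of 1.49, 1.45 and 1.43. On the other side of 1 lay Ppp1r15b, the constitutive counterpart of Ppp1r15a, at 0.829 (0.799 to 0.859). Eif2s1, which encodes the PERK substrate eIF2-alpha, lay there too, at 0.820 (0.782 to 0.859). None of the genes looked at in this way reached the 2-fold limit. At 1.5-fold 4 of the 26 genes of the list were called higher, namely Atf3, Ppp1r15a, Bbc3 and Bcl2l11, and 0 lower, beside 7.31% and 3.71% of all genes tested.

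Collagen prolyl and lysyl hydroxylases share the ER lumen with the module, and P4hb is a subunit of the prolyl enzymes. Of 11 genes 1 was called higher and 0 lower, beside 3.06% and 0.929% of all genes tested. At 1.5-fold 3 were called higher and 0 lower, beside 7.31% and 3.71% of all genes tested. The median log2 ratio was 0.17. Such counts say little about a list this small. Plod2, the lysyl hydroxylase of collagen telopeptides, had 11459 counts under force and 5778 in the control library, a ratio of 2.05 (1.98 to 2.11). The catalytic partners of P4hb, chosen after their values were seen, were P4ha1 at 1.57 (1.51 to 1.63) and P4ha2 at 1.89 (1.80 to 1.98), with P4ha3 at 0.879. For every 100 counts of P4hb there were 20.2 of P4ha1 under force and 13.8 in the control library, while P4hb itself stood at 1.07.

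ER-phagy receptors deliver pieces of the ER to lysosomes. Of 8 genes 1 was called higher and 0 lower, beside 3.06% and 0.929% of all genes tested. At 1.5-fold 2 were called higher and 0 lower, beside 7.31% and 3.71% of all genes tested. In a list this small, such counts say little about the list. Calcoco1, a receptor of ER-phagy and a coactivator, had 1887 counts under force and 843 in the control library, a ratio of 2.31 (2.13 to 2.51). Ccpg1, a receptor that the UPR induces, had a ratio of 1.59 (1.42 to 1.79) and was chosen after its values were seen.

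**Figure D5:**
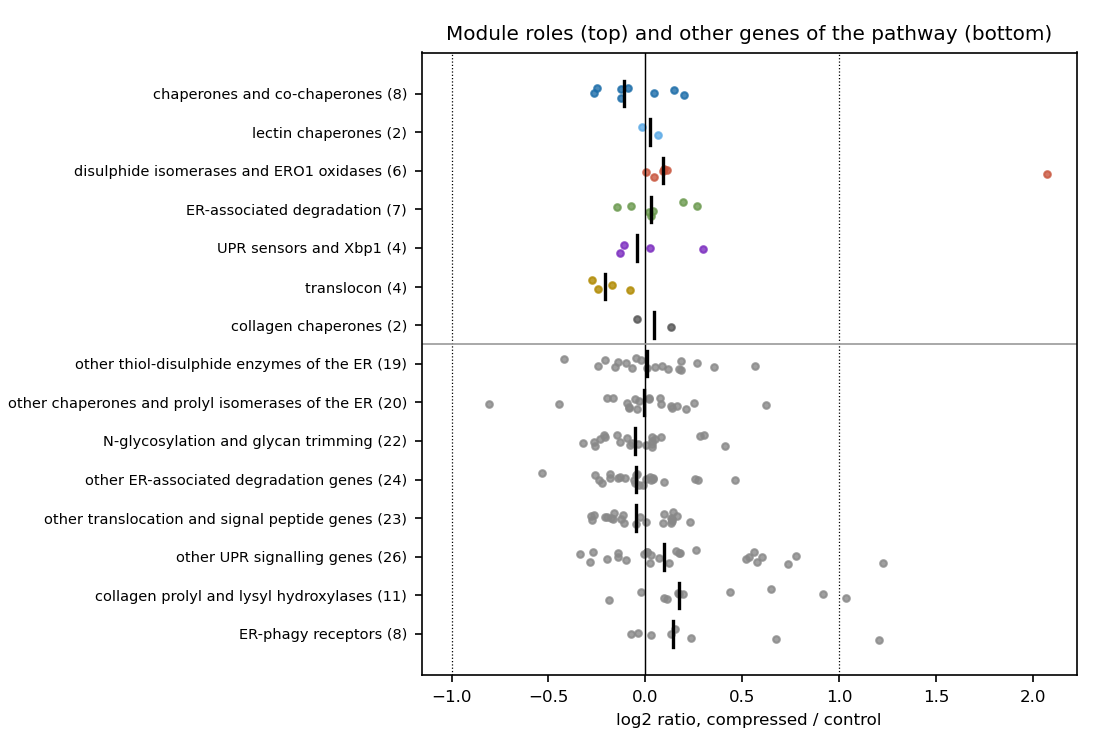
Log2 ratio of each tested gene in the 7 roles of the module (above the line) and in the 8 other lists of the pathway (below it), with the number tested in brackets, black bars at the medians and dotted lines at 2-fold. Every median lies between -0.21 and 0.17, and Ero1l at 2.07 is the farthest point.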

How the data were processed

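RNA was measured in 2 libraries, 1 per group. The deposited table holds raw read counts per gene. HISAT2 and the build GRCm38 come from the submitters' processing notes, while the counting tool, annotation version, strand setting and handling of multiply aligned reads were not given in the sources used here. TMM factors from edgeR 4.0.16 (R 4.3.3) scaled the library totals for CPM. Log2 ratios used a prior count of 0.5, and intervals were exact 95% conditional binomial (Clopper-Pearson), computed with SciPy 1.17.1. Reads are not independent molecules, so intervals cover counting error only. With 1 library per group, p-values were not computed. All genes were processed together. The calls were checked on simulated counts that held counting error only, so that check cannot cover the spread between cultures. Alternatives were total-count, DESeq2 1.42.0 and upper-quartile scaling, a loess fit on abundance, no CPM minimum or 5, a prior count of 5 and no interval requirement. The members and lists were chosen with earlier results of these data known. All members are reported. From each other list the genes called at 2-fold, or otherwise the 2 highest and 2 lowest ratios, are named. A gene that this rule selects is not reported here. Positions and promoters are from RefSeq (GRCm38.p6). Only genomic spans were at hand, so levels per length could not be computed. Counts of 1 gene per 100 of another depend on both lengths and are compared only between the libraries.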

Additional observations from a re-analysis of the deposited data

How the results depend on the processing

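No paired analysis was possible because each group has 1 library. Under the 7 alternatives that give a ratio, the log2 ratio of each tested member stayed within its own counting interval, and with a CPM minimum of 5, which removes Dnajc3, 32 members were compared. Ero1l was the 1 member called higher at 2-fold and at 1.5-fold under all 8 alternatives, and 0 were called lower. The median log2 ratio of the members lay between 0.01 with DESeq2 size factors and 0.03 with upper-quartile factors. Counts of members with an interval above or below 1, added after seeing the data, were 12 and 13 with the loess fit, and 11 and 15 with DESeq2 size factors. Depth limits Dnajc3, Edem2 and Ero1lb most.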
